A study of Mus musculus with 8 samples.

Results

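The 10 genes described here are Dhx34, Sae1, Ccdc61, Bcam, Irgc1, Zfp974, Fbxo27, Fbxo17, Gm19897 and Zfp30, all within the first 40 Mb of mouse chromosome 7, where C5ar1 also lies. They are 10 of the 14042 genes in the deposited tables, and were chosen by name because they differed between C5aR1-deficient (KO) and wild type (WT) libraries. Their KO against WT differences are therefore a description with no test. The series holds 8 RNA sequencing libraries in 4 groups of 2. Naive WT and naive KO libraries come from CD4 T cells sorted as CD62L high and CD44 low, from WT mice and from mice of genotype C5aR1-/-. TFH WT and TFH KO libraries hold CD4 cells of donor origin with the CXCR5+PD1hi surface of T follicular helper (TFH) cells, recovered from spleens of (bxd)F1 recipients. Each recipient had received 10000000 CD8-depleted splenocytes of a WT or C5aR1-/- donor, and sorting followed 7 days later. Age, sex and strain of the donors are not given in the labels, nor is the way the deletion was made or how many animals a library pools. C5ar1 itself is not among the 14042 genes analysed here, so its loss could not be checked in these values. The genotypes are taken as labelled.

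C5ar1 encodes a cell surface receptor for the complement fragment C5a. Genes that lie close together on a chromosome are inherited together, so DNA around a targeted gene tends to stay with it when a mutant line is crossed. The sequence of the KO mice in this stretch was not analysed here. The listed genes have no known shared task: they include a GTPase, a pair of F-box proteins, an adhesion molecule, a centrosomal protein, a SUMO enzyme subunit, an RNA helicase, a pair of zinc finger proteins and a predicted long noncoding RNA.

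On GRCm38, the build that mm10 names, C5ar1 occupies chr7:16246743-16259540 and the listed genes span chr7:16197147-29794702. Dhx34 at chr7:16197147-16222037 and Sae1 at chr7:16320234-16387806 lie on either side of C5ar1. Ccdc61 at chr7:18890883-18910415 and Bcam at chr7:19756131-19771016 follow at 2.65 and 3.51 Mb from it, measured between gene midpoints. Irgc1 at chr7:24431922-24452297 lies 8.19 Mb away. The remaining genes are 11.7 to 13.5 Mb away: Zfp974 at chr7:27907392-27929460, Fbxo27 at chr7:28692849-28699338, Fbxo17 at chr7:28716804-28738144, Gm19897 at chr7:28774899-28781514 and Zfp30 at chr7:29783998-29794702. Of these spans 9 are GENCODE vM21 genes of protein-coding type, and that of Gm19897 is from RefSeq.

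RefSeq promoter windows on GRCm38.p6 were found for 8 of the 10 genes, and the 250 bases upstream of the first listed start were searched on both strands for 4 motifs. The windows of Fbxo27 and Fbxo17 are shown because these neighbours had the most alike pattern over the libraries among the genes higher in naive KO cells. Those of Ccdc61 and Zfp974 are shown as a pair with closely alike patterns among the genes lower there. Capitals mark the CCAAT box (CCAAT), the GC box (GGGCGG) and the ETS core (CCGGAA) on either strand; the TATA box (TATAAA) was searched too. They are read 5′ to 3′ in the direction of the gene, from chr7:28692599-28692848 (plus strand), chr7:28716532-28716781 (plus), chr7:18910405-18910654 (minus) and chr7:27929459-27929708 (minus).
Fbxo27: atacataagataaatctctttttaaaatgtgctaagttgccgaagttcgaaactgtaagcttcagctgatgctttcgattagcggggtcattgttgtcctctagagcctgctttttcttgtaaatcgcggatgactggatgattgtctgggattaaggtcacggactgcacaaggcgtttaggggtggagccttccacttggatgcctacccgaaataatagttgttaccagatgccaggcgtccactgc
Fbxo17: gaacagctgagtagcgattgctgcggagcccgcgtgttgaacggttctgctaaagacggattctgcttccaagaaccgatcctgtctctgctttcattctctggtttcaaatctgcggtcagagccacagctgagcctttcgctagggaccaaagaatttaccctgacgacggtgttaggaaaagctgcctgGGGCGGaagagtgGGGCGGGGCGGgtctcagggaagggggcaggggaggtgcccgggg
Ccdc61: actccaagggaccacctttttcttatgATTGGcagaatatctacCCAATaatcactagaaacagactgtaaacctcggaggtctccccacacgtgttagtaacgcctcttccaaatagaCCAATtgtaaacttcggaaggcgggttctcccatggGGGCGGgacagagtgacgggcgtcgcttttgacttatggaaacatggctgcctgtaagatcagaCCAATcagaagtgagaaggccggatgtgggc
Zfp974: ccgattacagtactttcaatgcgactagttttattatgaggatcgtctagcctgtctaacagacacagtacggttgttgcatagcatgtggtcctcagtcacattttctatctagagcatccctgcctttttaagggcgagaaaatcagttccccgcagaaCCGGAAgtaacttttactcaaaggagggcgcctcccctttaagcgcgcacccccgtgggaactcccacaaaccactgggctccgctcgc

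The Fbxo17 window holds 3 GC boxes, the last 2 of which overlap, and the Fbxo27 window holds none of the 4 motifs. The Ccdc61 window holds 4 CCAAT boxes and 1 GC box, and that of Zfp974 holds 1 ETS core. No motif is thus shared within either pair. Over the 8 windows, 3 hold a CCAAT box, 3 a GC box, 1 an ETS core and 0 a TATA box, against 34.5%, 32.9%, 12.2% and 13.0% of 27025 promoters of the same length. CpG pairs numbered 3 in the window of Gm19897 to 22 in that of Bcam, beside a median of 6 over all promoters. These are matches of letters in the reference genome, not sites shown to be bound.

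All values below are the authors' deposited log2 expression values. Differences are between group means, with the moderated standard error (SE) and 2 libraries in each group. No depth can be read from these tables, since the values had been quantile normalized. The T cell label was checked on 9 measured T cell markers. Among them Cd3e lay at 13.75 to 13.99 and Cd4 at 15.48 to 15.69 over the 8 libraries. Of the 9, 3 were called lower in TFH than in naive WT cells, against 13.7% of all genes. In KO 4 were called lower, against 10.4%, and 0 were called higher in either genotype. Il21, a cytokine of TFH cells, was at 7.31 to 8.19 in naive and at 9.58 to 10.40 in TFH libraries, but transcripts of Cxcr5, a sort marker, lay at 11.56 to 12.45 in naive and at 10.85 to 11.56 in TFH libraries. Of 8 TFH markers 5 were called higher in TFH than in naive WT cells, against 12.6% of all genes. In KO 4 were called higher, against 9.12%. The TFH groups are called by their label. Replicate 1 of naive KO had Xist at 14.61, against 4.44 to 5.56 in the other 7 libraries, and the Y-linked Ddx3y at 5.67, against 12.54 to 13.16. It has the female pattern and the other 7 libraries the male one, so the naive KO libraries came from mice of different sex. For the other groups nothing in the labels or these genes shows whether libraries came from different mice, so p-values reflect how far these libraries vary, which may be technical there and includes sex in naive KO.

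Over the whole genome, 10 of 14042 genes (0.0712%) were called between naive KO and naive WT by limma at an adjusted p below 0.05. All 10 lay in the first 40 Mb of chromosome 7, which held 376 measured genes, and 0 of the 13636 genes placed elsewhere were called. They comprise 9 of the listed genes, all but Dhx34, and Slc1a5, a glutamine transporter gene. Of the listed genes 5 were called higher and 4 lower, beside 0.0356% of all genes called in each direction. As the members were chosen on this contrast, the count describes the choice. All 10 listed genes had naive groups that did not overlap, as had 26.4% of all genes. Of the 10, 6 were higher and 4 lower in naive KO, and their median absolute difference was 1.78, beside 0.09 over all genes. Without naive KO replicate 1, the library with high Xist, 6 genes of the interval were called, 5 of them listed, and without naive WT replicate 1, 7 were called, 5 of them listed. Genes elsewhere were also called when a library was left out: without naive WT replicate 2, 17 genes were called in all and 10 of them lay in the interval, and without naive KO replicate 2, 15 and 9.

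Irgc1 differed most. It encodes a member of the immunity-related GTPase family that is known mainly from male germ cells. Naive WT libraries had 5.26 and 6.04, naive KO libraries 10.49 and 10.18, TFH WT libraries 4.36 and 4.52, and TFH KO libraries 6.33 and 6.19. KO libraries were above WT libraries in both cell types, and the naive KO libraries were at least 3.85 above each TFH KO library and further above the WT libraries. KO minus WT was 4.69 ± 0.29 in naive cells, a 25.8-fold higher level, and 1.82 ± 0.29 in TFH cells, a 3.54-fold higher level. Its mean over the 8 libraries was 6.67, below the lower quartile of 8.14. Outside naive KO its level was low, so both folds are imprecise. The order of the groups was naive KO, TFH KO, naive WT and TFH WT, with no overlap between neighbours. Of 10 measured immunity-related GTPase genes only Irgc1, chosen on this contrast, was called between the naive groups, beside 0.0712% of all genes. Part of the Irgc1 span, 2974 bases, overlaps the noncoding gene Gm36159 on the opposite strand. Gm36159 shares 4.47% of the 51-base words of Irgc1 and is not among the genes analysed here. Without a stated strand setting, reads of the pair cannot be told apart there. Irgq, which lies nearby on chromosome 7, differed by 0.13 ± 0.13 between naive KO and WT.

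Fbxo17 and Fbxo27 are adjacent genes for F-box proteins, the substrate-binding parts of SCF ubiquitin ligases, of a subfamily that recognises sugar-bearing proteins. Fbxo17 stood at 8.72 and 8.93 in naive WT, 10.85 and 10.99 in naive KO, 9.58 and 9.61 in TFH WT, and 9.96 and 10.00 in TFH KO. Naive KO was highest and naive WT lowest, with both TFH groups between them and no overlap. The KO minus WT difference was 2.09 ± 0.13 in naive and 0.38 ± 0.13 in TFH libraries. Fbxo27 had 7.77 and 7.85 in naive WT, 9.72 and 9.51 in naive KO, 8.59 and 8.13 in TFH WT, and 8.81 and 8.36 in TFH KO. The TFH groups again lay between the naive groups, but overlapped each other, with KO minus WT at 1.81 ± 0.21 in naive and 0.22 ± 0.21 in TFH cells. Fbxo6 and Fbxo44, members of the subfamily on chromosome 4, differed by 0.06 ± 0.16 and 0.22 ± 0.31 between naive KO and WT. No stretch of 51 bases, the read length, is shared by the GENCODE transcripts of Fbxo17 and Fbxo27, so reads that match exactly cannot be exchanged between them.

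Zfp30 and Zfp974 encode zinc finger proteins of the kind encoded in clusters on this chromosome. Zfp30, a gene of low level in these tables, had 4.43 and 3.96 in naive WT, 6.83 and 6.97 in naive KO, 6.49 and 6.04 in TFH WT, and 6.66 and 6.35 in TFH KO. Only naive WT stood far below the rest; the TFH groups overlapped. KO minus WT was 2.70 ± 0.32 in naive and 0.23 ± 0.32 in TFH libraries. Zfp974 went the other way in naive cells. It had 8.84 and 9.28 in naive WT, 7.34 and 7.27 in naive KO, 8.37 and 8.25 in TFH WT, and 8.31 and 8.33 in TFH KO. The TFH groups lay between the naive ones and overlapped, with differences of -1.75 ± 0.19 in naive and 0.01 ± 0.19 in TFH cells. Of the 51-base words in Zfp974 transcripts 19.1% also occur in transcripts of other genes, chiefly Zfp780b, Zfp60 and Zfp607a, so its value is less certain. Its span also overlaps Gm26891 on the opposite strand over 1737 bases. The 3 zinc finger genes differed by -0.21 ± 0.15, -0.25 ± 0.13 and -0.24 ± 0.16 between naive KO and WT.

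Bcam encodes the Lutheran blood group glycoprotein, a receptor for laminin. A stretch of 406 bases of its span overlaps Gm26600 on the opposite strand, with the same limit. Its values were 8.32 and 7.90 in naive WT, 6.13 and 6.11 in naive KO, 8.25 and 8.09 in TFH WT, and 7.33 and 6.96 in TFH KO. WT libraries were above KO libraries in both cell types, and the WT groups overlapped each other. KO minus WT was -1.99 ± 0.23 in naive cells, where the WT level was 3.97-fold that of KO, and -1.03 ± 0.23 in TFH cells. Ccdc61 encodes a coiled-coil protein of centrosomes and basal bodies. It had 10.17 and 10.36 in naive WT, 8.79 and 8.80 in naive KO, 9.87 and 10.02 in TFH WT, and 9.78 and 9.93 in TFH KO. Naive KO alone was low, with differences of -1.47 ± 0.14 in naive and -0.09 ± 0.14 in TFH libraries, and the TFH groups overlapped.

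Gm19897, a predicted noncoding RNA, showed 9.04 and 9.35 in naive WT, 7.50 and 7.89 in naive KO, 8.72 and 8.84 in TFH WT, and 8.73 and 8.36 in TFH KO. Its difference was -1.50 ± 0.20 in naive and -0.24 ± 0.20 in TFH cells, where the groups overlapped. The gene lies wholly inside the span of Sirt2 on the opposite strand, and whether counting used strand is not given in the sources used here. Reads of the pair cannot then be told apart where their exons overlap. Sirt2, a deacetylase gene, was at 11.82 to 12.01 in the 4 naive libraries and differed by -0.04 ± 0.10 between naive KO and WT.

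The listed genes closest to C5ar1, Sae1 and Dhx34, had the smallest naive differences in size of the listed genes. Sae1 encodes a subunit of the enzyme that activates SUMO. It had 11.12 and 11.06 in naive WT, 11.82 and 11.84 in naive KO, 11.42 and 11.37 in TFH WT, and 11.43 and 11.41 in TFH KO. Replicates agreed closely and both TFH groups sat between the naive groups, overlapping each other, with KO minus WT at 0.74 ± 0.09 in naive and 0.03 ± 0.09 in TFH libraries. Uba2, its partner subunit, also on chromosome 7 within the first 40 Mb, differed by 0.06 ± 0.10 in naive cells. Of 17 SUMO pathway genes only Sae1, chosen on this contrast, was called there, beside 0.0712% of all genes.

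Dhx34, an RNA helicase gene of nonsense-mediated decay, was the one listed gene with a larger difference in TFH than in naive cells. It had 10.75 and 11.00 in naive WT, 11.31 and 11.47 in naive KO, 11.01 and 11.02 in TFH WT, and 11.55 and 11.78 in TFH KO. KO libraries were above WT libraries in both cell types, by 0.52 ± 0.12 in naive and 0.65 ± 0.12 in TFH cells. Of 18 nonsense-mediated decay genes 0 were called between the naive groups by limma, with 3 at an unadjusted p below 0.05. Over all genes 2.53% reached that level. Dhx34 itself was chosen on this contrast, so nothing particular to the list is read from the count. Smg9, which lies near Irgc1 on chromosome 7, differed by -0.42 ± 0.11.

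**Figure D1:**
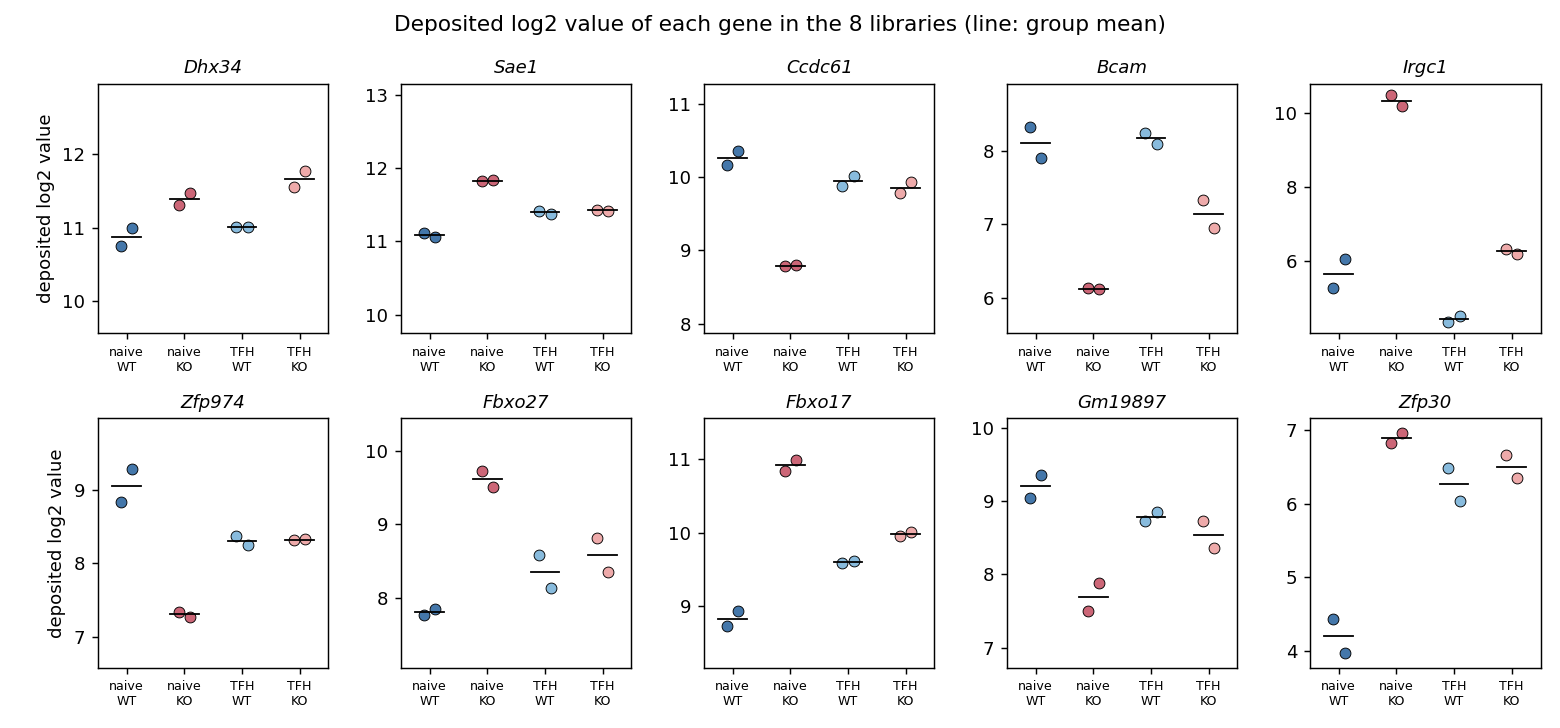
Deposited log2 values (vertical axes, whose range differs between panels) of the 10 genes in each of the 4 groups, with a point per library and a line at the group mean, in order along the chromosome. Irgc1 in naive KO stands at 10.49 and 10.18, far above the other groups. For 9 of the 10 genes the TFH means of KO and WT lie closer together than the naive means, the exception being Dhx34.

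In TFH cells 4 of the 10 genes had KO and WT groups that did not overlap, namely Irgc1, Bcam, Dhx34 and Fbxo17, beside 33% of all genes. Among TFH libraries limma called 0 of 14042 genes (0%) between KO and WT, with 506 (3.6%) at an unadjusted p below 0.05, and called 1 gene, not a listed one, when only these 4 libraries were fitted. The sign of the difference was the same in naive and TFH cells for 9 genes, the exception being Zfp974 with 0.01 in TFH cells. Some of these signs rest on TFH differences smaller than their SE, namely Sae1 (0.03 ± 0.09), Ccdc61 (-0.09 ± 0.14) and Zfp30 (0.23 ± 0.32). That of Fbxo27 ran from -0.01 to 0.45 when single libraries were left out. The share of all genes with the same sign in both cell types was not computed. The TFH difference was the smaller in size for 9 genes, the exception being Dhx34. The median absolute difference of the 10 genes was 0.24 in TFH cells, beside 0.10 over all genes. Naive and TFH comparisons share no library, but the genes were chosen with results of both known, and whether the effects differ was therefore not tested.

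Genes beyond the listed ones also differed along this stretch. Among the 366 other measured genes of the first 40 Mb, 53 (14.5%) had an unadjusted p below 0.05 between naive KO and WT, against 2.14% of genes outside the interval and 2.53% of all genes. Of the 366, 183 were higher and 183 lower in naive KO. In TFH cells 17 (4.64%) reached that level, against 3.55% outside. With single libraries left out the share in naive cells was 12.6% to 15.6%, and the lowest was without naive KO replicate 1, where genes outside the interval had 4.11%.

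The shares were also read in bins of 10 Mb, of which 229 held at least 20 measured genes. In naive KO against WT, the bins of chromosome 7 from 0 to 10, 10 to 20, 20 to 30 and 30 to 40 Mb had 11.3%, 21.1%, 18.5% and 13.3% of genes at an unadjusted p below 0.05. These were the 4 highest shares of the 229 bins, and the highest in the other 225 was 9.52%. The bins from 10 to 20 and 20 to 30 Mb count the listed genes, which were chosen on this contrast, and Slc1a5. All of these had an unadjusted p below 0.05, and shares without them were not computed. In bins of 5 Mb the picture was less even. Of the 8 bins of the interval 6 had 13.0% to 30.8%, the listed genes counted. They ranked 1 to 6 of 271 bins with at least 20 genes. The bin from 5 to 10 Mb had 0 of 27 genes at that level and the bin from 35 to 40 Mb 0 of 19. Bins on chromosomes 11 and 14 reached 11.5% and a bin on chromosome 1 11.1%, in 26 or 27 genes each. The next 10 Mb bin of chromosome 7, from 40 to 50 Mb, had 0.82% of its 122 genes at that level. The interval had been set with these results in view, so the ranking is a description. By median absolute difference the 4 bins ranked 19, 5, 6 and 7, and bins of chromosomes 9, 14, 13 and 6 ranked above them. These medians count the listed genes and Slc1a5. Without those genes the 4 bins ranked 19, 6, 9 and 5.

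**Figure D2:**
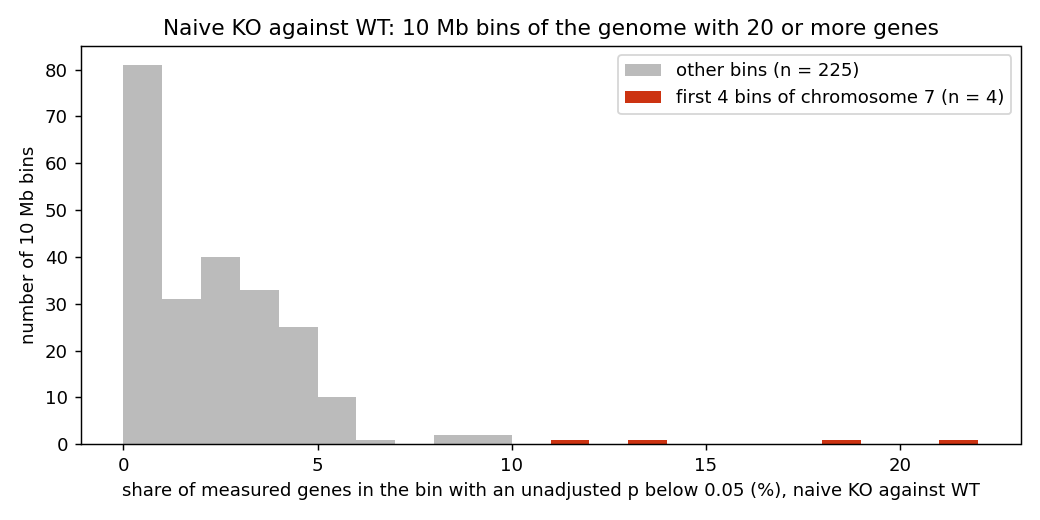
Number of 10 Mb bins (vertical axis) by the percentage of their measured genes with an unadjusted p below 0.05 in naive KO against WT (horizontal axis), for bins with at least 20 genes. The 4 bins covering the first 40 Mb of chromosome 7 (red) have 11.3% to 21.1%, to the right of the other 225 bins (grey), which reach 9.52%. The listed genes are counted in these shares.

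Large naive differences were also seen away from C5ar1, but how differences vary with distance was not measured. The 15 other measured genes within 0.5 Mb of C5ar1 had naive differences between -0.31 (Bbc3, a cell death gene) and 0.33 (Tmem160). The listed genes in that range, Dhx34 and Sae1, had 0.52 and 0.74. Irgc1 at 8.19 Mb had 4.69, and like them was chosen on this contrast. Inafm1 and Ccdc9, close to C5ar1, differed by 0.01 ± 0.14 and -0.12 ± 0.12. Slc1a5, whose midpoint is 0.54 Mb away, had 13.90 and 14.04 in naive WT, 11.56 and 11.63 in naive KO, 13.86 and 13.81 in TFH WT, and 13.15 and 13.28 in TFH KO. It was lower in KO by 2.38 in naive cells and by 0.62 in TFH cells, with no overlap in either.

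By p-value, the last of the listed genes that were called was Gm19897. The next genes of the interval after it were Zfp14, a zinc finger gene, at 1.09 ± 0.17, and Eps8l1, a gene related to the actin regulator Eps8, at -3.56 ± 0.38. Eps8l1 lies 11.8 Mb from C5ar1 on the other side, and had 10.58 and 11.83 in naive WT, 7.79 and 7.50 in naive KO, 9.71 and 9.74 in TFH WT, and 8.58 and 8.42 in TFH KO. KO was thus lower in both cell types. Further genes of smallest p were Pvr, the gene of the poliovirus receptor CD155, at -0.59 ± 0.10, Igsf23 at 1.27 ± 0.19, the galectin gene Lgals4 at -0.95 ± 0.17 and Hpn, the gene of the protease hepsin, at -1.01 ± 0.19. Pepd, a dipeptidase gene, had -0.59 ± 0.11, Pglyrp1, a peptidoglycan recognition gene, -1.04 ± 0.20 and Zfp27 -0.83 ± 0.17. In TFH cells these 7 genes, from Pvr to Zfp27, had differences nearer 0, from -0.33 for Pglyrp1 to 0.32 for Igsf23. They were taken for their small p in naive cells, so the smaller TFH differences are a description and were not tested.

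**Figure D3:**
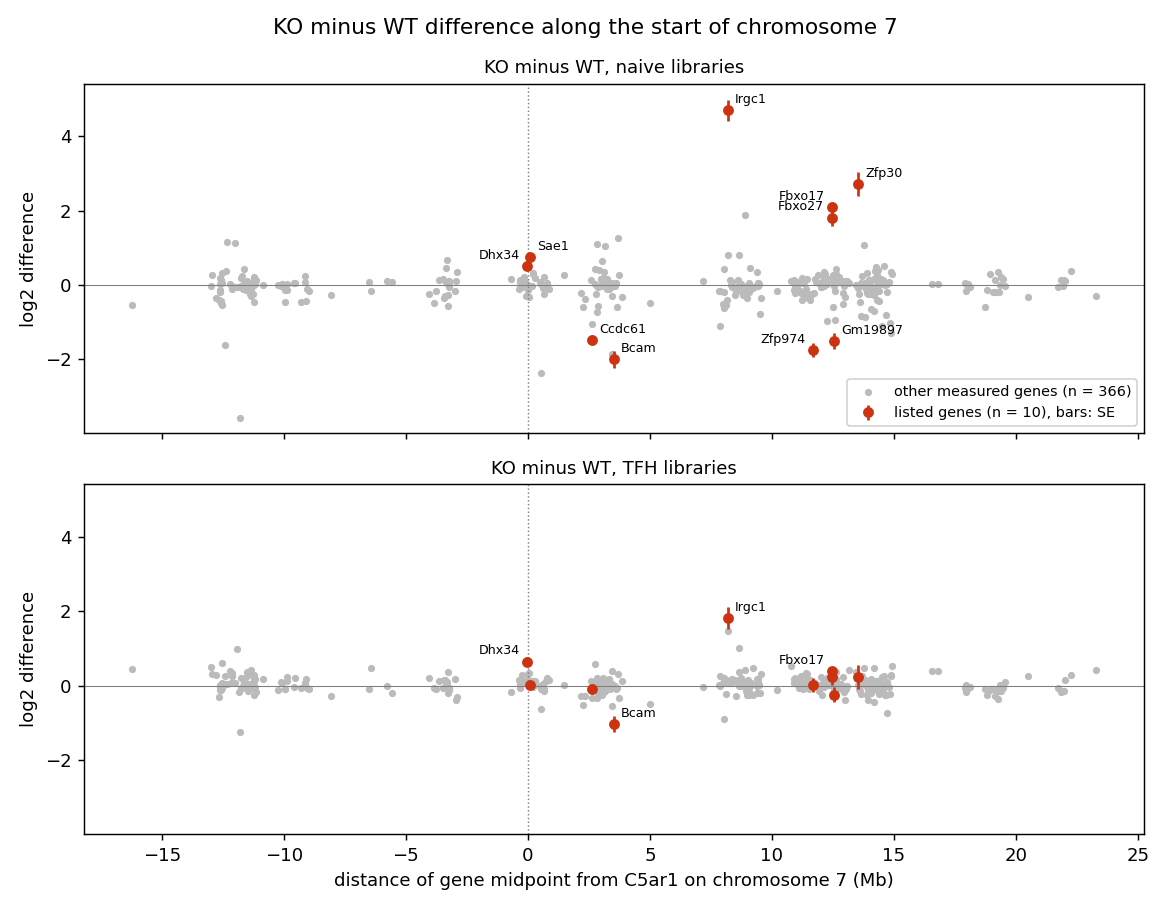
Difference of KO and WT (log2, vertical axes) for every measured gene of the first 40 Mb of chromosome 7 against the distance of its midpoint from C5ar1 in Mb, in naive (top) and TFH libraries (bottom); red points are the 10 listed genes with SE bars and grey points the 366 other genes. In naive cells the listed genes run from -1.99 (Bcam) to 4.69 (Irgc1), and in TFH cells from -1.03 to 1.82.

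Patterns over all 8 libraries were compared by the root mean square (RMS) difference of values centred on each gene's mean. For 8 listed genes with a naive difference of 1 or more in size, the 3 nearest of all other genes were taken. Of these 24 pairings 21 were with genes on chromosome 7, which holds 1094 of the 14042 measured genes. The 21 include pairings of listed genes with each other, which were chosen on these libraries. The exceptions were Ccm2l on chromosome 2, found for both Fbxo17 and Zfp30, and Cx3cr1 on chromosome 9 for Irgc1. Fbxo17 and Fbxo27 were nearest to each other, with an RMS difference of 0.24 beside their own spreads of 0.76 and 0.68. Ccdc61 was nearest to Gm19897 (0.19) and Zfp974 (0.19), and Bcam to Slc1a5 (0.29). Irgc1 had no close match, its nearest gene D930028M14Rik being 1.34 away. The genes were chosen on these libraries, so likeness among them is a description.

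TFH libraries were then compared with naive libraries within each genotype. The genes had been chosen for KO and WT values in these same libraries, so naive levels that were extreme in either genotype are the starting point of the differences. The differences and calls of the listed genes are therefore a description, with no p-value, and their direction is not independent of the choice. In WT, limma called 26.3% of all genes, and 5 of the 10 listed genes. Zfp30 was higher in TFH cells by 2.07 ± 0.32, a 4.21-fold higher level, Fbxo17 by 0.77 ± 0.13 and Sae1 by 0.31 ± 0.09, which makes 3 genes called higher, against 12.6% of all genes. Irgc1 at -1.21 ± 0.29 and Zfp974 at -0.75 ± 0.19 were called lower, against 13.7% of all genes. Fbxo27 at 0.55 ± 0.21, Gm19897 at -0.41 ± 0.20, Ccdc61 at -0.32 ± 0.14, Dhx34 at 0.14 ± 0.12 and Bcam at 0.06 ± 0.23 were not called. TFH and naive WT groups did not overlap for 9 of the 10 genes, all but Bcam, as for 65% of all genes. With each WT library left out in turn, the calls of Zfp30 and Fbxo17 held. The call of Irgc1 was lost without TFH WT replicate 1 (-1.13) or naive WT replicate 2 (-0.82), that of Zfp974 without TFH WT replicate 2 (-0.69) or naive WT replicate 2 (-0.53), and that of Sae1 in each of the 4 cases (0.28 to 0.34). With the WT libraries fitted alone the call of Irgc1 was lost as well, and without the trend option that of Sae1.

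In KO, limma called 19.5% of all genes and 8 of the 10. Irgc1 was lower in TFH cells by the most, at -4.08 ± 0.29, a level 16.9-fold lower than in naive KO cells. Fbxo27 at -1.03 ± 0.21, Fbxo17 at -0.94 ± 0.13 and Sae1 at -0.41 ± 0.09 were called lower as well, against 10.4% of all genes. Ccdc61 at 1.06 ± 0.14, Bcam at 1.02 ± 0.23, Zfp974 at 1.01 ± 0.19 and Gm19897 at 0.85 ± 0.20 were called higher, against 9.12% of all genes. Zfp30 at -0.40 ± 0.32 and Dhx34 at 0.28 ± 0.12 were not called. TFH and naive KO groups were apart, without overlap, for 10 of the 10 genes, as for 58.2% of all genes. The call of Fbxo27 was lost without TFH KO replicate 2 (-0.81), that of Bcam without TFH KO replicate 1 (0.83), that of Sae1 without TFH KO replicate 2 (-0.40), and that of Gm19897 without TFH KO replicate 1 (0.66) or naive KO replicate 1 (0.66).

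**Figure D4:**
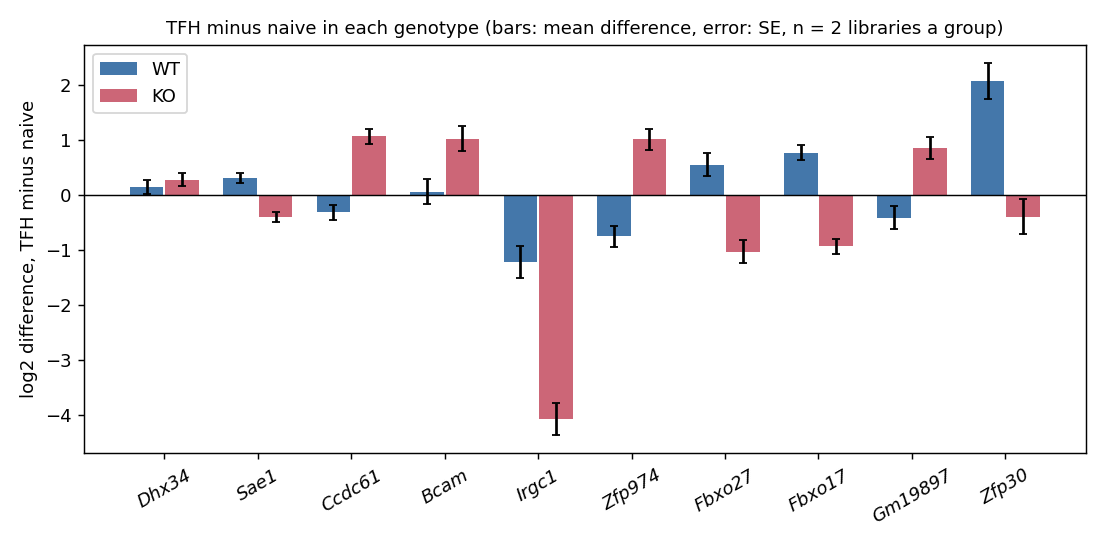
Difference of TFH and naive group means (log2, vertical axis) for the 10 genes in WT (blue) and KO (red), with SE bars and 2 libraries a group. For 7 genes (Sae1, Ccdc61, Zfp974, Fbxo27, Fbxo17, Gm19897 and Zfp30) the bars of the genotypes point in opposite directions, and Irgc1 is lower in both, by 1.21 and 4.08.

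For most listed genes both TFH groups thus lay between the naive groups. Setting the naive WT mean at 0% and the naive KO mean at 100% on the log2 scale, TFH WT lay at 36.7% for Fbxo17, 30.4% for Fbxo27, 41.6% for Sae1, 76.6% for Zfp30, 42.8% for Zfp974, 21.5% for Ccdc61 and 27.5% for Gm19897. TFH KO lay at 55.1%, 42.9%, 45.1%, 85.3%, 42.2%, 27.7% and 43.6% for the same genes. Bcam stayed at its naive WT level in TFH WT (-3.0%) and stood at 48.6% in TFH KO. Irgc1 lay at -25.9% and 13.0%, and Dhx34 at 27.4% and 153.5%.

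Lists of genes that work with the listed ones were read the same way. In naive KO against WT, 0 of 6 SCF core genes and 0 of 9 partners of KRAB zinc finger proteins were called by limma, with 0 of either at an unadjusted p below 0.05. Of 12 laminin receptor genes and 13 centriole genes 1 each was called, Bcam and Ccdc61. Both were chosen on this contrast, and 0.0712% of all genes were called, so these counts describe the choice and nothing particular to a list. Between TFH and naive WT cells the counts below stand beside 12.6% of all genes called higher and 13.7% called lower, and nothing particular to a list is read from them. There 2 of 17 SUMO pathway genes rose, Sae1 among them, and 1 fell, with Senp6, a SUMO protease gene, at 0.45 ± 0.10 (adjusted p = 0.0067) and Pias1, a SUMO ligase gene, at -0.50 ± 0.11 (adjusted p = 0.0063). Of 18 nonsense-mediated decay genes 5 rose and 1 fell, with Magoh of the exon junction complex at 0.65 ± 0.12 (adjusted p = 0.0027). Of 10 immunity-related GTPase genes 1 rose and 2 fell, with Irgm1 at 0.58 ± 0.15 and Irgm2 at -0.83 ± 0.14. Of 6 SCF core genes 2 rose and 1 fell, as did 2 and 1 of 13 centriole genes, and 0 of 12 laminin receptor genes were called by limma, with 1 at an unadjusted p below 0.05. Trim28, the main KRAB partner, rose by 0.36 ± 0.10 (adjusted p = 0.0172) and was the only one of its 9 genes called.

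Markers of other cells varied between the libraries. The log2 of the summed level of 10 B cell markers, all 10 measured, was 12.23 to 13.06 in naive WT, 12.82 to 13.68 in naive KO, 11.74 and 13.72 in TFH WT, and 11.29 and 15.19 in TFH KO, replicate 2 being the high one in both TFH groups. That of 10 myeloid markers was 13.77 to 15.41 in naive WT, 13.71 to 13.92 in naive KO, 11.35 to 12.59 in TFH WT and 11.63 to 13.03 in TFH KO. The median KO minus WT difference of the B cell list was 0.74 in naive and 0.73 in TFH cells, and that of the myeloid list -0.83 and 0.28. The lowest deposited value is 1.16, so no marker is listed at 0. Limma called 0 of 10 in each list between KO and WT, in naive or in TFH cells, with 1 myeloid marker at an unadjusted p below 0.05 in naive cells and 0 otherwise. It also called 0 of 8 NK and CD8 T cell, 0 of 5 erythroid and platelet and 0 of 6 endothelial, stromal and epithelial markers, with 2, 0 and 1 at that level in naive and 2, 0 and 0 in TFH cells. The median TFH KO minus WT difference was 0.66 for the NK and CD8 T cell list, and -0.49 for the 8 TFH markers, of which 0 were called and 3 had an unadjusted p below 0.05. Over all genes, 2.53% reached that level by limma between the naive groups and 3.6% between the TFH groups. The part of other cells in the results was not tested. Without replicate 2 of both TFH groups, each TFH arm is 1 library, assumed to vary like the naive groups, which alone supply the spread. In that fit the TFH difference of Gm19897 was 0.00, and Fbxo27 was called between TFH and naive WT (0.78), while Sae1 was not called in either genotype, nor Zfp974 in WT.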

How the data were processed

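The 8 mouse libraries of sorted CD4 cells were read from one end over 51 bp, according to the protocols in the labels. BWA and mm10 are named in the submitters' processing notes without a version; counter, annotation, strand setting, filter and normalization: not given in the sources used here. For each library the authors deposited log2 expression values of 14042 genes, from 1.16 to 19.48. Once sorted, the libraries' values differ by at most 0.03 above the lowest percentile, as quantile normalization leaves them. Depth is unknown, so counting error cannot be stated.

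The deposited log2 values were fitted as they stand, with no pseudocount or filter, by limma 3.58.1 (R 4.3.3): a mean per group over all 8 libraries, 4 residual degrees of freedom, moderation with the trend and robust options, and Benjamini-Hochberg adjustment over all genes, called below 0.05. Genes were placed by GENCODE vM21 or RefSeq on GRCm38 (14012 of 14042). The genes, lists, 40 Mb interval and tests were chosen with earlier results of these data known. Named genes are the 10 listed ones, the 10 others of the interval with the smallest p, those within 0.5 Mb of C5ar1 (in part), up to 3 called genes of each pathway list (in part) and the nearest patterns. Pathway lists cover SUMO, nonsense-mediated decay, F-box, SCF, immunity-related GTPase, laminin receptor, centriole and KRAB partner genes; marker lists cover B, myeloid, NK and CD8 T, erythroid and platelet, endothelial, stromal and epithelial, T and TFH cells. Alternatives were limma without trend or robust option, compared groups only, a filter below the lower quartile (mean log2 8.14), each library left out, and no libraries with high B cell genes.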

Additional observations from a re-analysis of the deposited data

Results flagged for a closer look

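For 7 genes, values differed from naive to TFH cells in opposite directions in the 2 genotypes, with every TFH WT library on one side of every naive WT library and every TFH KO library on the other side of every naive KO library. Fbxo17 differed by 0.77 in WT and -0.94 in KO, Fbxo27 by 0.55 and -1.03, and Sae1 by 0.31 and -0.41. Zfp30 differed by 2.07 in WT and -0.40 in KO. Ccdc61 differed by -0.32 in WT and 1.06 in KO, Zfp974 by -0.75 and 1.01, and Gm19897 by -0.41 and 0.85. The difference between genotypes was not tested, since it is made of the same KO against WT differences on which the genes were chosen. Separation of TFH from naive libraries alone, in either direction, was seen for 65% of all genes in WT and 58.2% in KO. The share of all genes separated in opposite directions in the 2 genotypes was not computed, so the count of 7 has no background beside it.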

How the results depend on the processing

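No paired analysis was possible because the labels carry no replicate numbers. The replicate numbers 1 and 2 used here follow the order of the samples in the series and pair no libraries between groups. Of the genes of the first 40 Mb of chromosome 7, 10 were called in naive KO against WT, with 6 to 11 when single libraries were left out (6 without naive KO replicate 1), and 8 to 11 under the other alternatives. In TFH KO against WT the count was 0 under every alternative run. The listed genes called between TFH and naive WT cells numbered 5, against 3 with low values filtered, which removed 3 listed genes (Irgc1, Bcam and Zfp30), and 2 to 5 with single libraries left out. It was 2 when naive WT replicate 2 was dropped, and 3 when either TFH WT library was. In KO 8 were called, against 6 to 8. No called difference of a listed gene changed sign in any alternative run. For 4 genes, naive KO minus WT moved by more than the replicate standard deviation pooled over the 4 groups when a naive WT library was dropped. It ran from 4.29 to 5.08 for Irgc1, 1.99 to 2.20 for Fbxo17, -2.20 to -1.78 for Bcam and -1.98 to -1.53 for Zfp974. The size of such a shift is set by the gap between the naive WT libraries. With 5 Mb bins the highest share of called genes was 5.56%, against 4.44% with 10 Mb bins, but by the share at an unadjusted p below 0.05 the interval was uneven, with 0 of 27 genes from 5 to 10 Mb and 0 of 19 from 35 to 40 Mb. Where a library is left out, its arm is 1 library, assumed to vary like the other groups. The share of other interval genes at an unadjusted p below 0.05 in TFH cells, a measure chosen after seeing the data, was 4.64%, 2.46% without the libraries high in B cell genes and 2.73% without TFH WT replicate 1. With 2 libraries a group and unknown depth, small differences and low levels, such as those of Irgc1, Bcam and Zfp30, are imprecise.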
